A study of Mus musculus with 32 samples.

Results

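Of 56459 features in a table of ribosome-associated RNA from mouse forebrain neurons, 46 were low in the PV neurons of the cortex and varied less than 2-fold between the means of the 7 other populations. They were found by a rule on CPM, the deposited count of a feature divided by the total of its library and multiplied by 1000000. A feature was kept when it had at least 1 CPM in all 28 libraries of the other groups, when the highest mean of those groups was under 2 times the lowest, and when the PV mean was at most 0.5 times that lowest mean. The first condition left 11682 features and the second 6390, called the even features below, before the third left the 46. Evenness is a name for that limit and not for equal levels: the highest other group mean was 1.14 to 1.97 times the lowest in the members, median 1.71, against a median of 1.55 in the even features that are not members. The level in PV cortex and the evenness elsewhere are therefore properties the features were chosen for, and they are described without a test.

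The libraries fall into 8 groups of 4, 32 in all. Cortex gave the populations titled PV, SST, VIP, CamK and Scnn, and hippocampus those titled SST, CamK and Grik. Every library is labelled wild type (WT), and no treatment is labelled. The sources used here do not give ages, sexes, driver lines, numbers of animals or whether replicates are separate animals, so p-values measure the spread between these libraries, which may be technical. Total counts were 100158438 to 114153919 per library, except 186505391 in SST hippocampus replicate 1. In a PV library 1 CPM stands for 105 to 110 counts.

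As background, parvalbumin-positive interneurons are GABAergic cells that fire fast, brief action potentials and inhibit the cell bodies and axon initial segments of principal neurons. Somatostatin interneurons contact distal dendrites, and many interneurons with vasoactive intestinal peptide inhibit other interneurons. CamK, Scnn and Grik are taken here from knowledge of the field as glutamatergic populations, Scnn as enriched in layer 4 and Grik in CA3. RNA bound to ribosomes of a genetically marked class approximates the messages that class is translating. A feature that is low in 1 class and present in all the others is the reverse of a marker gene: it tells that class apart by what it holds little of.

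Each feature is known by an identifier (GSMG and a number) without a gene symbol, and a search of the reference tables for them gave 0 matches. No function is therefore stated for a member, no sequence is printed, and the populations could not be checked on marker genes. Only features picked by a fixed rule, up to 2 in each direction of a comparison, and 1 singled out after its values were seen, are printed by identifier.

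The drop in PV cortex ranged from just past the rule to about 10-fold. The PV mean was 9.88% to 49.4% of the lowest other group mean, with a median of 41.8%. Relative to the mean of all 7 other groups the log2 difference on column-total CPM was -3.71 to -1.17, median -1.64. Most of the 46 lay near the limit of the rule, with 28 between 0.4 and 0.5 times the lowest mean, 11 at least 3-fold below it and 4 at least 4-fold below it. In bulk libraries fewer cells holding an RNA and less of it per cell cannot be told apart.

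**Figure D1:**
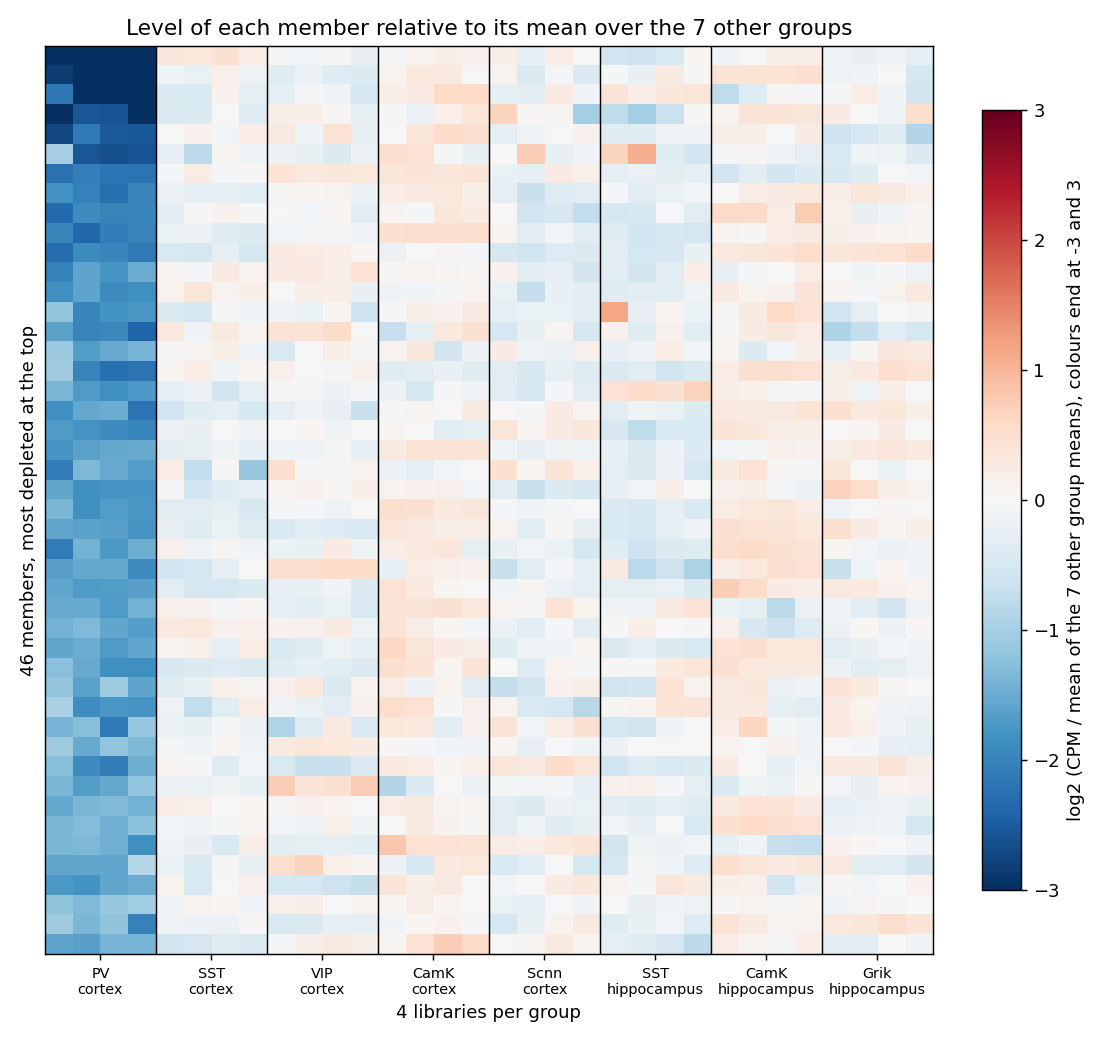
Each row is 1 of the 46 members and each column 1 of the 32 libraries, coloured by log2 of CPM over the mean of the 7 other group means, with the colours ending at -3 and 3. Rows run from the lowest PV to lowest-other ratio (9.88%) at the top to the highest (49.4%) at the bottom, and the 4 PV cortex columns on the left hold the darkest blue cells of every row.

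GSMG0006923 had the deepest drop and was among the abundant members. Its 4 PV cortex libraries stood at 47.8, 41.3, 42.7 and 54.4 CPM. The same feature was at 778, 756, 833 and 716 CPM in SST cortex, the highest of all groups. The remaining cortical libraries were at 590, 581, 584 and 516 CPM in VIP, 597, 654, 683 and 662 CPM in CamK, and 695, 512, 706 and 606 CPM in Scnn.

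In the hippocampus the CPM of GSMG0006923 was 412, 395, 442 and 636 in SST, 564, 613, 704 and 701 in CamK, and 549, 525, 553 and 511 in Grik. PV cortex, at 46.5 ± 5.95 CPM (SD, n = 4), thus lay 10.1-fold under the lowest group, SST hippocampus at 471.2 ± 112 CPM. The highest PV library was 7.25-fold under the lowest of the other 28, the widest such gap of all members. Among interneurons the 2 extremes were both cortical, PV as the lowest and SST as the highest group.

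GSMG0015488 was the next deepest and a far less abundant member, and its PV libraries held 0.943, 0.549, 0.495 and 0.594 CPM. It was at 6.24, 5.96, 7.57 and 6.1 CPM in SST cortex, 5.32, 5.95, 5.25 and 5.17 CPM in VIP, 7.4, 8.3, 8.3 and 6.78 CPM in CamK cortex, and 7.38, 5.06, 6.53 and 5.08 CPM in Scnn. In the hippocampus its CPM was 6.59, 5.84, 8.28 and 6.97 in SST, 9.11, 9.11, 9.03 and 9.71 in CamK, and 6.18, 6.36, 6.8 and 4.71 in Grik. Here VIP cortex was the lowest other group (5.42 ± 0.36 CPM) and CamK hippocampus the highest (9.24 ± 0.32 CPM), against 0.645 ± 0.203 CPM in PV cortex (SD, n = 4).

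**Figure D2:**
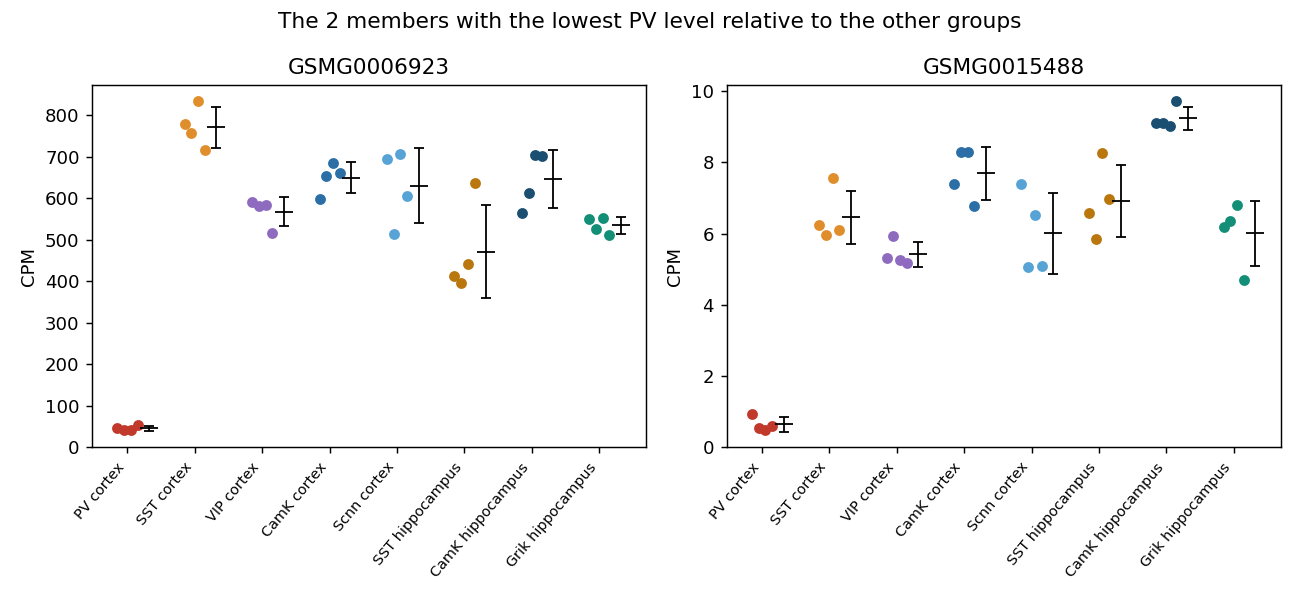
CPM of GSMG0006923 (left) and GSMG0015488 (right) in each library by group, with the group mean and SD (n = 4) as bars beside the points, on linear axes from 0. PV cortex is at 46.5 and 0.645 CPM on average, below every library of the 7 other groups.

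None of the 46 lacked reads in PV cortex. No member was at 0 in a PV library, the lowest value being 17.2 counts, and 5 had a PV mean under 1 CPM. Outside PV cortex the members covered a wide range of abundance, with means over the 7 other groups of 1.79 to 941 CPM and a median of 19.7 CPM. By this mean 17 members were under 10 CPM, 18 between 10 and 100 CPM and 11 over 100 CPM. Per 1000 units of the deposited feature length, the scale on which features can be compared, the same mean ran from 0.581 to 508 CPM, median 12.4. Summed over all members, PV cortex libraries held 1088 ± 61.5 CPM, against group means of 3325 ± 70.1 CPM in SST hippocampus to 4815 ± 111 CPM in CamK cortex (SD, n = 4). Abundant members weigh most in this sum. Of its mean over the 7 other groups, 4057 CPM, GSMG0013812 held 941 CPM and GSMG0006923 610 CPM.

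Although the rule looks at means, the PV libraries also stood apart one by one. For all 46 members the highest PV library was below the lowest of the other 28, which was so for 8.48% of the 6390 even features. The gap between those libraries was 1.11-fold to 7.25-fold, with a median of 1.73. It was at least 1.5-fold in 34 members and at least 2-fold in 14. Because the members were chosen on the means of these libraries, the count is a description.

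On column totals the members were furthest under the CamK groups and nearest to the SST groups. The median member was 3.64-fold lower in PV cortex than in CamK hippocampus, 3.56-fold lower than in CamK cortex, 3.16-fold than in Grik hippocampus and 3.03-fold than in VIP cortex. The corresponding medians were 2.89-fold for Scnn cortex, 2.79-fold for SST cortex and 2.71-fold for SST hippocampus. With TMM-scaled libraries, a scaling on the bulk of features, the CamK groups were again the furthest (3.77-fold in cortex and 3.72-fold in hippocampus), but VIP cortex was the nearest at 2.52-fold, before SST hippocampus at 2.63-fold and SST cortex at 2.71-fold. On column totals SST hippocampus was the lowest of the 7 other groups for 13 members, Scnn cortex for 10, VIP cortex for 7, SST cortex for 6, CamK hippocampus for 5, Grik hippocampus for 4 and CamK cortex for 1. A CamK group was the highest for 26 members, 13 in each region. The matching counts among the even features were not taken, so whether these orders are particular to the members was not tested.

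A PV library left out of the selection showed the drop as well. When the rule was applied with 3 PV libraries it chose 46 to 48 features, of which 42 to 44 belonged to the 46. The library left out was below all 28 others for 47 of 48 features (PV replicate 1), 46 of 46 (replicate 2), 48 of 48 (replicate 3) and 46 of 47 (replicate 4). It met the stricter limit of 0.5 times the lowest other group mean for 33, 39, 39 and 36 of these features. The median log2 distance to that lowest mean in the library left out was -1.11 for replicate 1 and -1.35 to -1.29 for the others. The 28 other libraries are the same in selection and comparison, so only the PV value is held out. Replicates of the same group chose the features, so high counts follow in part from the choice and are a description. The matching share of even features was not taken for a single PV library. For all 4 PV libraries together, a stricter condition, it was 8.48% of the 6390 even features.

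By the median of the members PV replicate 1 was the least depleted of the 4. The median log2 level of the members, relative to the geometric mean of the 7 other groups, was -1.53 there and -1.65, -1.72 and -1.73 in replicates 2, 3 and 4. Replicate 1 was the highest PV library for 20 members but the lowest for 10. Replicate 3 was the highest for 3 and the lowest for 12. GSMG0011324, singled out after its values were seen, was at 63.9 CPM in replicate 1 and at 21.3, 20.4 and 21.1 CPM in the other 3. This feature also varied elsewhere, from 84.4 to 269 CPM in SST hippocampus and from 106 to 213 CPM in Scnn cortex.

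The 28 features that the rule turned round selects, at least 2-fold above the highest other group in PV cortex, moved little between PV libraries. Their median log2 level was 1.51 in replicate 1, the lowest, and 1.53 to 1.59 in the other 3. Without this replicate the rule chose 48 features, 44 of them among the 46. The coefficient of variation of a member within PV cortex had a median of 14.6%, against 8.02% (VIP cortex) to 13.2% (Scnn cortex) in the other groups.

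**Figure D3:**
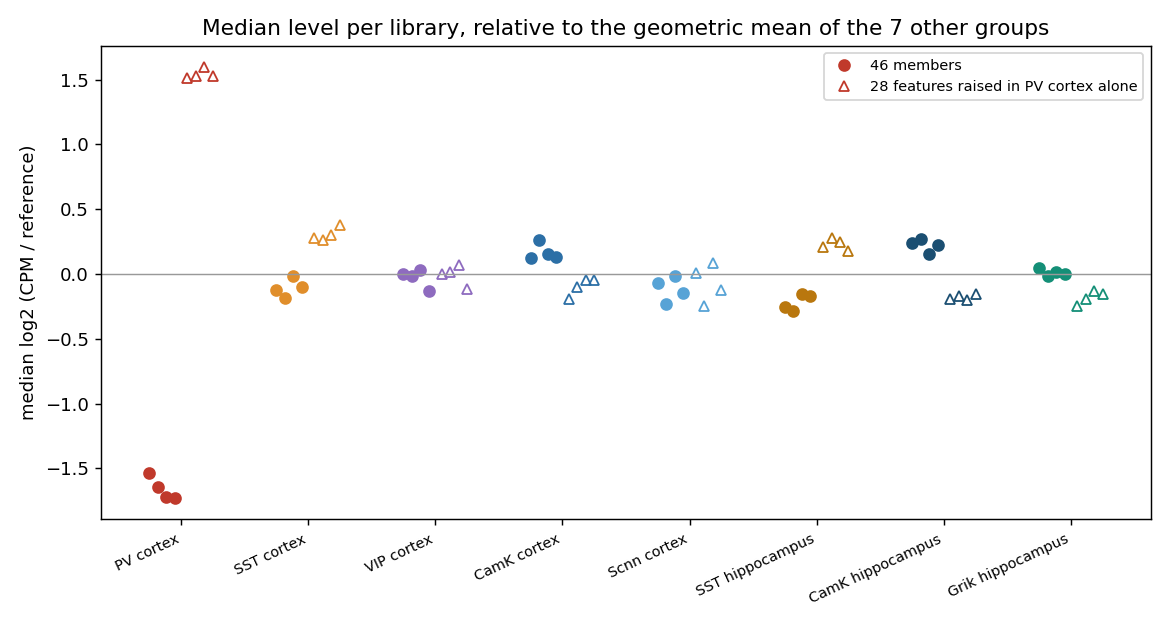
Filled circles give the median of the 46 members in each library and open triangles that of the 28 features raised in PV cortex alone, as log2 of CPM over the geometric mean of the 7 other groups, 4 libraries per group. The PV circles lie at -1.73 to -1.53 and all other circles between -0.29 and 0.27, while the PV triangles lie at 1.51 to 1.59.

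PV cortex had more features of this kind than any other group under the same rule, on column totals. The rule gave 12 features lower in Grik hippocampus alone, 5 in Scnn cortex, 4 in VIP cortex, 3 in CamK cortex, 2 in CamK hippocampus and 0 in either SST group. As shares of the features even across the remaining 7 groups, PV cortex had 0.72% and Grik hippocampus 0.207%. With the rule turned round PV cortex also had the most, 28, against 9 in VIP, 7 in Scnn and 5 in Grik. SST cortex and CamK hippocampus had 1 each, and CamK cortex and SST hippocampus 0. Because SST and CamK each have a counterpart in the other region, a feature low in 1 of their groups must also differ from the same population there. PV does not face this, and neither do VIP, Scnn and Grik. With TMM-scaled libraries VIP cortex had 10 and Grik hippocampus 7, and PV cortex 35, of which 30 were among the 46.

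The limits of the rule fell within a continuous range of values. The PV ratio just inside was 0.494 and just outside 0.5, and 57 even features had a ratio between 0.5 and 0.6. The largest evenness ratio of a member was 1.97, and the next feature beyond, which met the floor and the PV limit, was at 2.07. A further 289 features met the floor and the PV limit but not the evenness. The lowest library of a member outside PV cortex was at 1.05 CPM, against 0.772 CPM for the nearest feature under the floor.

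The differences among the other 7 groups contain no PV library and were tested with edgeR's quasi-likelihood F test, with Benjamini-Hochberg adjustment over all 24555 features tested. Calls below have an adjusted p under 0.05 and no fold threshold. The rule holds the column-total means of these groups to less than a 2-fold range. Counts for the 6390 even features, which share that limit, therefore stand beside those of all features tested. Fitted differences with TMM, and differences between regional effects, can exceed 2-fold. Libraries were scaled by TMM, whose factors were 1.14 to 1.24 in VIP cortex and 0.899 to 1.06 elsewhere. It moved the median log2 level of even features in VIP cortex, relative to the mean of the 7 groups, from 0.02 on column totals to -0.23. Counts with VIP are therefore also given on column totals. Log2 differences in these comparisons are with TMM unless stated, while CPM values are on column totals. At least 1 of 7 such comparisons called 42 of the 46 members (91.3%), near the 86.7% of all features tested and the 94.4% of even features.

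In the cortex, with TMM scaling, members that differed between the remaining interneurons and the glutamatergic populations were lower in the interneurons. For SST and VIP against CamK and Scnn cortex, edgeR called 24 of 46 members lower and 0 higher. The background was 27.1% lower and 28.3% higher among all features tested, and 40.7% lower and 17.4% higher among the even features. In either direction 52.2% of the members passed, near the 55.4% of all features tested and 58.1% of even features. At an unadjusted p under 0.05, 1 member was higher, and DESeq2 called 2 higher and 20 lower. Leaving out CamK cortex replicate 3, VIP replicate 2 or VIP replicate 3 gave 1 higher. On column totals alone the split was 14 lower and 8 higher, where 18.8% of features tested were lower and 39% higher, and 18.9% and 39.9% of the even features. VIP is the group here whose titles carry a W, a series mark that the other 3 lack. The median log2 fold change of the members was -0.28, against -0.10 for the even features and 0.09 for all tested.

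GSMG0040846 was at 23.4 to 36.6 CPM in the 8 SST and VIP libraries and at 36.8 to 55.5 CPM in the 8 CamK and Scnn libraries, with no overlap (edgeR log2 difference -0.81, SE 0.09, adjusted p = 3.53e-09). GSMG0001486 was at 8.65 ± 1.72 CPM in the interneurons and 13.1 ± 1.35 CPM in the glutamatergic groups (SD, n = 8 each). Its libraries did not overlap either (-0.81, SE 0.09, edgeR adjusted p = 8.01e-09), but the gap was narrow. The highest interneuron library was at 11.22 CPM and the lowest glutamatergic one at 11.35 CPM. The pooled means cover 9.99 CPM in SST and 7.31 CPM in VIP, and 12.2 CPM in CamK and 14.1 CPM in Scnn. On column totals alone the log2 difference was -0.62 for each of these features. Both features were lowest of all in PV cortex by the rule, at 11.4 ± 1.69 and 3.42 ± 0.857 CPM (SD, n = 4).

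In the hippocampus, which holds no PV group, most members that passed were also lower in interneurons. For SST against CamK and Grik hippocampus, 28 members were lower and 2 higher, where 24.7% of features tested were lower and 29.1% higher. Of the even features 35.1% were lower and 18.5% higher. On column totals alone 23 members were lower and 3 higher, and the matching shares of features are not given for that scaling. In either direction 65.2% of the members passed, against 53.8% of all features tested and 53.6% of even features. The median member differed by -0.45 on the log2 scale, against -0.08 for even features and 0.09 for all tested. These libraries are separate from those of the cortical comparison, and 15 members were lower in both, which is 62.5% of the cortical list and 53.6% of the hippocampal list. These 15 are 32.6% of the members, and 16.5% of all features tested and 24% of even features were lower in both. Of all 46 members 60.9% were lower in the hippocampal comparison, near the 62.5% of the cortical list. In the cortical comparison 52.2% of all members were lower, near the 53.6% of the hippocampal list. An association between the lists was not tested. A further 9 were lower in the cortex comparison alone, 13 in the hippocampus alone and 9 in neither.

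GSMG0032079 had the largest fitted drop, with a level of 93.4 ± 6.74 CPM in SST (SD, n = 4) against 166.4 ± 14.6 CPM in CamK and Grik together (SD, n = 8), an edgeR log2 difference of -0.95 (SE 0.15, adjusted p = 2.91e-06). GSMG0019920 was at 139.8 to 172.5 CPM in SST and 247.2 to 293.5 CPM in the glutamatergic libraries (-0.92, SE 0.07, edgeR adjusted p = 1.44e-12). The groups did not overlap for either feature. GSMG0038803 was higher in SST, at 108.9 ± 8.45 against 78.8 ± 6.6 CPM (0.35, SE 0.09, edgeR adjusted p = 0.00199). GSMG0027835 was also higher in SST (0.32, SE 0.10, edgeR adjusted p = 0.00689), but its libraries overlapped and without SST hippocampus replicate 5 the adjusted p was 0.0644.

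**Figure D4:**
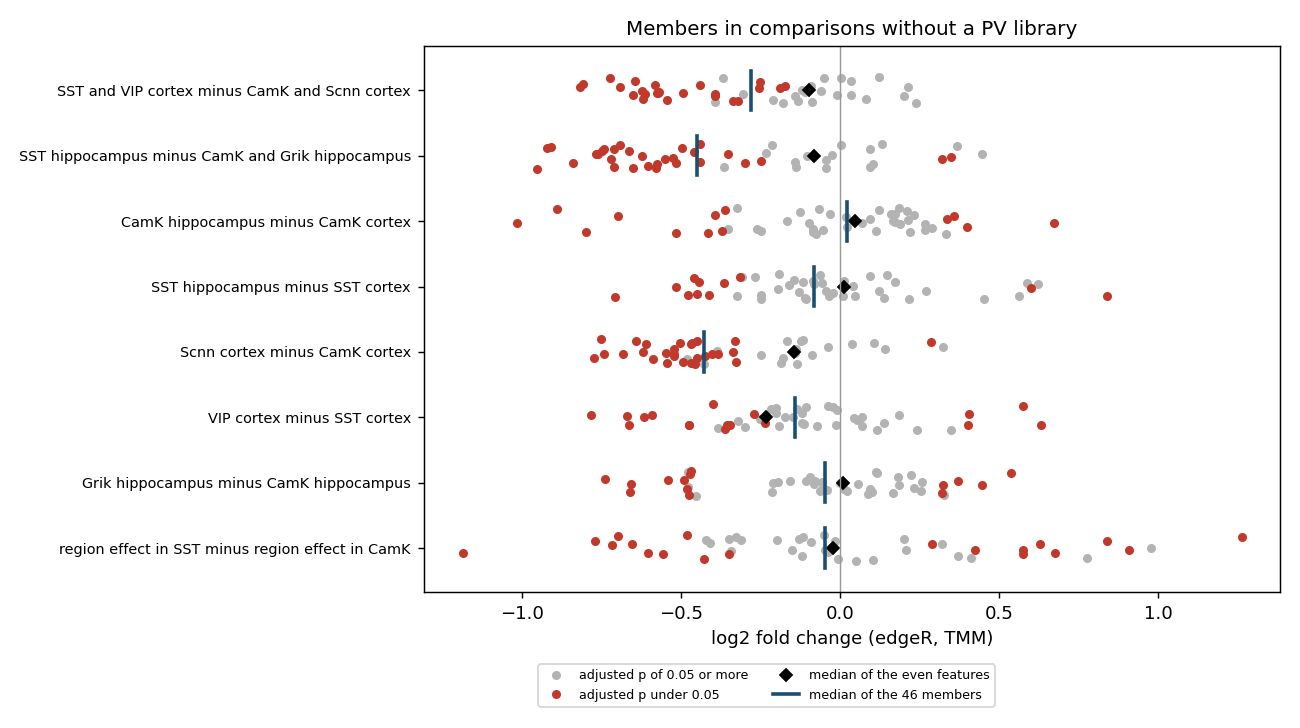
Each point is 1 of the 46 members in 1 of 8 comparisons that hold no PV library, placed by its edgeR log2 fold change and coloured by whether the adjusted p is under 0.05, with blue bars at the members' median and black diamonds at the median of the 6390 even features. In the upper 2 rows and in Scnn minus CamK most red points are to the left of 0, with member medians of -0.28, -0.45 and -0.43.

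Glutamatergic populations also differed from each other. In Scnn cortex 27 members were lower than in CamK cortex and 1 was higher, with 22.3% of features tested lower and 19.4% higher. Of the even features 34.4% were lower and 5.24% higher, and their median was -0.14 against -0.43 for the members. GSMG0013812, the most abundant member, was at 993, 756, 889 and 742 CPM in Scnn and at 1291, 1333, 1341 and 1345 CPM in CamK (edgeR log2 difference -0.75, SE 0.09, adjusted p = 3.52e-08), and at 221.7 ± 26 CPM in PV cortex (SD, n = 4).

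GSMG0000360 fell by 0.77 on the log2 scale in Scnn (SE 0.21, edgeR adjusted p = 0.00462), though its Scnn libraries (27.2 to 52 CPM) overlapped those of CamK (47 to 69.2 CPM). GSMG0040739 was the member higher in Scnn, at 55.1 ± 4.91 against 42.2 ± 5.96 CPM (0.29, SE 0.09, edgeR adjusted p = 0.0136, SD over n = 4 each). In the hippocampus Grik and CamK differed less one-sidedly, with 9 members lower and 5 higher in Grik. Of the features tested 15.8% were lower and 17.1% higher, and of the even features 15.7% and 17.6%. On column totals the counts were 13 lower and 3 higher, with 19.7% and 14% of features tested and 24.6% and 11% of even features.

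Between these hippocampal populations GSMG0050875 was at 132.2 ± 16.2 CPM in Grik against 220.4 ± 11.5 CPM in CamK (SD, n = 4 each), without overlap (-0.66, SE 0.09, edgeR adjusted p = 3.19e-07). GSMG0034050 was lower in Grik too, at 4.45 to 6.78 against 8.66 to 10.7 CPM (-0.74, SE 0.19, edgeR adjusted p = 0.00324). GSMG0040846, described above for the cortex, was higher in Grik, at 32.4 ± 2.13 against 23.6 ± 5.07 CPM (0.54, SE 0.13, edgeR adjusted p = 0.00144). GSMG0040795 was also higher (0.44, SE 0.12, edgeR adjusted p = 0.00283), with overlap.

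VIP and SST cortex gave no stable side. With TMM 13 members were lower and 4 higher in VIP, with 25.9% of features tested lower and 24.9% higher and 50.3% of even features lower and 5.31% higher. On column totals 5 were lower and 12 higher, with 15.2% and 33.1% of features tested and 22.2% and 18% of even features, so the larger side turned with the scaling. Without VIP replicate 1 the count of lower members fell to 7, and without VIP replicate 4 to 8. The W in the VIP titles and the population cannot be told apart. The members' median was -0.14 with TMM, above the -0.23 of the even features.

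Individual members still separated these interneurons. GSMG0027837 was at 6.83 to 7.88 CPM in VIP and 8.17 to 12.5 CPM in SST (edgeR log2 difference -0.78, SE 0.13, adjusted p = 1.04e-05), and GSMG0001486 differed by -0.67 (SE 0.13, edgeR adjusted p = 1.05e-04). GSMG0032264 was higher in VIP, at 11.3 ± 0.37 against 6.29 ± 1.21 CPM (0.63, SE 0.19, edgeR adjusted p = 0.00752, SD over n = 4 each). GSMG0029936 was higher by 0.57 (SE 0.15, edgeR adjusted p = 0.00227). Libraries of the groups did not overlap for any of these 4 features.

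Between regions the share of members that passed was 28.3% in CamK and 23.9% in SST, against 35.5% and 22% of all features tested and 39.7% and 20.8% of even features. In CamK neurons 9 members were lower and 4 higher in hippocampus than in cortex, where 19.2% of features tested were lower and 16.3% higher. The even features had 16.9% lower and 22.8% higher. On column totals the counts were 8 and 6, with 17.3% and 18.7% of features tested and 13.7% and 28.6% of even features. In SST neurons 9 members were lower and 2 higher in the hippocampus, with 11.9% and 10.1% of features tested and 10.8% and 10.1% of even features. Across both populations 21 members (45.7%) passed in at least 1 of the regional comparisons by edgeR, near the 44.7% of all features tested and 49.6% of even features. Of these members 1 was lower in the hippocampus in both, where 6.43% of features tested and 5.88% of even features were, and 0 were higher in both, where 3.58% and 3.02% were. The hippocampal CamK and SST titles carry a W and the cortical ones do not, so the region and that mark cannot be told apart.

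GSMG0019396 was at 15.4 to 18 CPM in CamK hippocampus and at 29.2 to 30 CPM in CamK cortex (edgeR log2 difference -0.89, SE 0.10, adjusted p = 1.91e-08). GSMG0019920 was higher in CamK hippocampus, at 265.1 ± 18.9 against 194.6 ± 11.4 CPM (0.40, SE 0.08, edgeR adjusted p = 2.05e-04, SD over n = 4 each). In SST neurons GSMG0006923, the member with the deepest PV drop, was lower in the hippocampus by 0.71 on the log2 scale (-0.71, SE 0.11, edgeR adjusted p = 1.81e-05). GSMG0038803 was higher there, at 108.9 ± 8.45 against 60.7 ± 6.38 CPM (0.84, SE 0.11, edgeR adjusted p = 6.34e-07), as was GSMG0001830, at 91.7 ± 12.2 against 60.5 ± 1.74 CPM (0.60, SE 0.11, edgeR adjusted p = 1.26e-04).

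For 19 members the regional difference was not the same in both populations. A test in the same model compared both regional effects, each hippocampus minus cortex. It called the effect, not the level, higher in SST than in CamK for 9 members and lower for 10. Of all features tested 12.2% were called higher and 11% lower, and of the even features 9.72% and 12.9%.

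GSMG0032079 went opposite ways. It was at 100, 101, 111 and 101 CPM in CamK cortex and at 150, 178, 178 and 173 CPM in CamK hippocampus, while SST cortex held 134, 149, 117 and 133 CPM and SST hippocampus 94.3, 101, 84.4 and 94.4 CPM. The effects were 0.67 (SE 0.17, edgeR adjusted p = 0.00181) in CamK and -0.51 (SE 0.17, edgeR adjusted p = 0.024) in SST, a difference of -1.19 (SE 0.23, edgeR adjusted p = 3.28e-04). The SST effect taken alone lost its call without SST cortex replicate 2 (adjusted p = 0.0881) or SST hippocampus replicate 3 (0.0766), and without a filter on low counts (0.0521). GSMG0040739 had the same order, with 0.36 in CamK (edgeR adjusted p = 0.00261), -0.41 in SST (edgeR adjusted p = 0.0012) and a difference of -0.77 (SE 0.13, edgeR adjusted p = 3.86e-05).

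GSMG0040846 dropped in CamK from 45.9 ± 6.46 CPM in cortex to 23.6 ± 5.07 CPM in hippocampus (SD, n = 4 each; -1.01, SE 0.13, edgeR adjusted p = 1.59e-07). In SST it was at 29.3 ± 5.53 and 27.2 ± 3.67 CPM, a difference that did not pass (-0.11, SE 0.13, edgeR adjusted p = 0.629). The difference between both effects was 0.91 (SE 0.18, edgeR adjusted p = 3.58e-04). GSMG0042219, at 1.05 to 2.71 CPM in these 16 libraries, was lower in CamK hippocampus (-0.70, edgeR adjusted p = 0.0202), while its SST effect of 0.56 did not pass (edgeR adjusted p = 0.0884). The difference was 1.26 (SE 0.33, edgeR adjusted p = 0.00546).

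**Figure D5:**
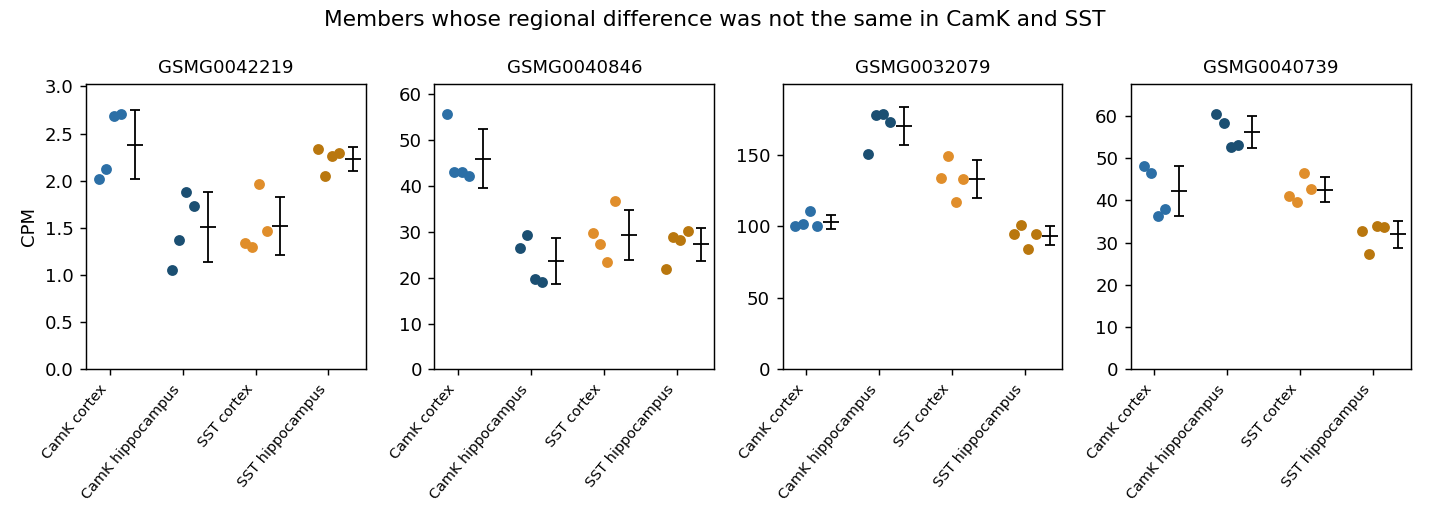
CPM per library of 4 members, those with the 2 largest called differences between regional effects in each direction, in CamK and SST of both regions, with mean and SD (n = 4) as bars beside the points, on linear axes from 0. GSMG0032079 and GSMG0040739 are higher in the hippocampus in CamK and lower there in SST, GSMG0040846 is 23.6 against 45.9 CPM in CamK, and GSMG0042219 stays under 3 CPM.

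The members were longer features than the other even ones, by the deposited length. Their median length was 1868.5 (571 to 12744), against 1294 for the 6344 even features that are not members, and 31 of 46 were above the latter median. In 4 equal bins of the even features by length, from shortest to longest, 5, 10, 14 and 17 members were found. In 4 equal bins by mean level outside PV cortex, from lowest to highest, the numbers were 21, 8, 4 and 13, so members were most frequent among the least and the most abundant even features. These are descriptions of a chosen list with no test, and the unit of the length column is not stated in the file.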

How the data were processed

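A stranded kit that selects polyadenylated RNA was used on 50 ng per library, per the labels' protocols. The genome build was GRCm38, and featureCounts, FastQC, SAMtools and Picard are listed with no role or version, per the submitters' processing notes. The aligner, annotation and use of strand in counting were not given in the sources used here, so overlapping features and near-identical copies are uncertain. The authors deposited expected counts, estimated and often fractional numbers of reads (20.1% of values above 0 were whole within 1e-06), with a length per feature. Another 12 columns of per-sample values match no sample of the labels and were not used. The small whole-number code per feature, also deposited, was not used.

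The members and comparisons were chosen with earlier results of these data known. Selection and CPM used column totals. For tests, counts were rounded and analysed in edgeR 4.0.16 (R 4.3.3): filterByExpr kept 24555 features, TMM set the library sizes, and all 32 libraries entered 1 robust quasi-likelihood fit with a mean for each group (24 residual degrees of freedom). An SE is the log2 fold change over the square root of F. DESeq2 1.42.0, other scalings and filters, and leaving out each library were alternatives. Named features are the 2 members with the lowest PV ratio and, per comparison, up to 2 called members with the largest log2 fold change each way. The script was tested on simulated data. Replicate numbers were not treated as pairs in the main fit. Between libraries of different groups, correlations of deviations from the group means were taken. With plain numbers they exceeded 0.1 for 4 of 24 same-numbered pairs (median 0.030) and 0 of 72 others (median -0.006). With W numbers they did so for 0 of 16 and 0 of 80. Some structure shared by plain number is therefore possible, and a block by number was an alternative.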

Additional observations from a re-analysis of the deposited data

Results flagged for a closer look

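The regional effect, hippocampus minus cortex, was higher in SST than in CamK for 9 members and lower for 10, by the test of the difference itself. For the named members the differences were 1.26 for GSMG0042219, 0.91 for GSMG0040846, -1.19 for GSMG0032079 and -0.77 for GSMG0040739 on the log2 scale.

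Single libraries stood far from the other 3 of their group for 6 of 80 groups of libraries examined, where chance flags about 1 in 20. The 80 are the median level of all members in each group, the 2 members deepest in PV cortex in each group, and the other named members in the groups their comparisons hold. GSMG0011324, at 63.9 CPM in PV cortex replicate 1, is left out of this tally because it was singled out for that value. The 6 were GSMG0006923 at 516 CPM in VIP cortex, GSMG0015488 at 9.71 CPM and GSMG0027835 at 18 CPM in CamK hippocampus, GSMG0040846 at 55.5 CPM and GSMG0032079 at 110.5 CPM in CamK cortex, and GSMG0040739 at 27.3 CPM in SST hippocampus. Of all 46 members, 5 had such a library within PV cortex. Besides GSMG0011324, PV replicate 1 stood apart in GSMG0032079 at 60.8 CPM, GSMG0000360 at 24.6 CPM and GSMG0042219 at 0.407 CPM. Their other PV libraries were at 26.8 to 32.1, 13.3 to 14.3 and 0.163 to 0.192 CPM. The remaining member, not named by the fixed rule, was at 1.31 CPM in PV replicate 4 against 0.794 to 0.796 CPM.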

How the results depend on the processing

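The number of members was 35 to 52 under other scalings, floors and group medians, and 44 to 48 without 1 library, with 29 of the 46 chosen in every such run. It was 11 at a PV limit of 0.333 times the lowest mean, 194 at 0.667 times, 8 with an evenness under 1.5 and 123 under 3. The median log2 difference of the members was -1.68 to -1.62 without 1 library (PV against the 7 groups) and -1.66 to -1.57 (PV against CamK, Scnn and SST cortex), the latter -1.65 with a replicate block against -1.63 without. Under that block 26 members were lower and 2 higher in SST hippocampus, 26 and 1 in Scnn, and 10 and 4 in Grik, and no count moved by over 1.5 times. With TMM sizes the same rule gave 10 features for VIP cortex, 0 for CamK cortex and 7 for Grik hippocampus.

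On column totals alone, chosen after seeing the data, SST and VIP against CamK and Scnn gave 8 higher and 14 lower, VIP against SST 12 higher and 5 lower, and Grik against CamK 3 higher. Members higher in SST and VIP numbered 1 with RLE factors, 1 with the filter of 1 CPM in 4 libraries and 2 with DESeq2, which also called 4 higher in SST hippocampus than cortex. With at least 1.5-fold required, 9 members were lower for SST and VIP cortex, and the counts lower and higher were 16 and 0 for SST hippocampus, 4 and 1 for region in CamK, 8 and 0 for Scnn, 5 and 1 for VIP against SST, 3 and 0 for Grik, and 6 and 5 for the difference of regional effects. For region in SST 1 was lower. Shares of all features tested or of even features are not given for the counts in this section, except on column totals above. These counts therefore show only how the number of members moved with the setting.

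Without 1 library the counts higher were 0 to 1 (SST and VIP cortex), 1 to 2 (SST hippocampus), 4 to 5 (region, CamK), 2 to 3 (region, SST), 1 (Scnn), 4 to 6 (VIP), 4 to 6 (Grik) and 6 to 8 (difference of regions), and the counts lower 19 to 24, 25 to 28, 7 to 8, 6 to 9, 20 to 24, 7 to 15, 8 to 10 and 8 to 11. Of 452 alternative values for named features 448 kept direction and call, 4 lost the call and none turned, and the cause was not tested.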
